A study of Mus musculus with 96 samples.

Results

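The genes described here are 10 immediate early genes of the mouse: Fos, Fosb, Fosl1, Fosl2, Jun, Junb, Egr1, Egr2, Ier3 and Myc. They were taken by symbol from a gene count table, and all 10 symbols were found among the 54146 genes of that table. Counts were available for 96 RNA-seq samples of C2C12 cells, a mouse myoblast line that leaves the cell cycle and fuses into myotubes in low serum, in 35 conditions of 2 or 3 samples each.

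Immediate early genes are transcribed within minutes of a growth factor, serum or stress signal, from factors that the cell already holds, and most of them encode transcription factors. FOS and JUN proteins pair to form AP-1, which binds the letters TGAGTCA or TGACTCA, EGR proteins are zinc-finger factors that bind GC-rich sites, and MYC pairs with MAX to drive ribosome production and growth. Many of these transcripts are short lived, so that a sample taken hours after a stimulus shows a sustained level, not the first peak. In muscle precursors, growth factors that keep the cells dividing also keep several of these genes active.

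Proliferating myoblasts in 10% dialyzed serum carried a doxycycline-inducible transgene as selected lentiviral lines, induced with 300 ng/ml doxycycline for 24 h before treatment: luciferase (Luc, the control line), LbNOX (a bacterial water-forming NADH oxidase of the cytosol), mitoLbNOX (the same enzyme sent to the mitochondrial matrix) or NDI1 (a yeast NADH dehydrogenase that piericidin does not inhibit). Day 1 cells were untransduced, post-mitotic cells after 24 h in 2% serum, and myotubes were cells at 4 days in low serum, untransduced or infected with adenovirus for GFP alone or GFP with LbNOX. Cells received DMSO, 0.5 µM piericidin (complex I), 0.5 µM antimycin (complex III), 1 µM oligomycin (ATP synthase) or 0.5 µM BAM15 (an uncoupler) for 10 h, with a complete change of medium, lacking pyruvate and uridine, at the start in DMSO wells as well, and some untransduced myotubes were held in 5% oxygen from the night before. Luc and LbNOX myoblasts also received 20 µg/ml chloramphenicol, which blocks mitochondrial translation, or DMSO for 48 h. For chloramphenicol, fewer cells were seeded per well and the medium held uridine. There were 3 samples per condition, except for 2 in each NDI1, 48 h and GFP myotube condition. Between Luc myoblasts and the later states, cell state thus went together with serum, transduction, doxycycline and confluence, which cannot be told apart, and all Luc DMSO and all day 1 samples had plate codes of outer positions.

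Total counts ran from 6458295 to 15366745 per sample, and levels below are normalized CPM, estimated counts scaled to library size with TMM factors over all 96 samples. Each transgene was at 0 counts outside its own lines, and the LbNOX row ran from 2189 to 13457 counts in LbNOX myoblasts, from 6152 to 24020 in mitoLbNOX myoblasts and from 58360 to 153436 in LbNOX myotubes. Myotube markers were near 0 in DMSO-treated Luc myoblasts, where 8 of them summed to between 17.4 and 21.6 CPM, against 10970 to 11570 CPM in day 1 cells and 12650 to 13260 CPM in myotubes. Myog, a differentiation factor, lay at 0.186 to 0.744 CPM in Luc myoblasts and at 702 to 781 CPM in myotubes. In RNA from whole wells, fewer cells of a type and less RNA per cell cannot be told apart. Fosb had between 0 and 11 counts in every sample, below the filter of 16 counts in every replicate of at least 1 condition, and was not tested, so that 9 of the 10 genes were tested in each comparison.

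Upstream sequences are shown for tested members whose promoter holds a motif of the serum response (the CArG box, bound by SRF) or of the cAMP and stress response (the CRE, TGACGTCA, or parts of it, bound by CREB and ATF proteins). Fosb, which also holds TGACG, was too low to test and is not shown. RefSeq promoters of GRCm38.p6 matched 7 of the 10 genes by symbol: Fos, Fosb, Fosl2, Jun, Junb, Egr2 and Ier3. Fosl1, Egr1 and Myc had no such entry and were not searched for motifs. The 130 bases before the RefSeq start are given 5′ to 3′ on the gene's strand, with capitals marking a CArG box, TGACNTCA or the CRE core TGACG on either strand. These matches are descriptions of letters, not of binding.
Fos, chr12:85473760-85473889, plus strand: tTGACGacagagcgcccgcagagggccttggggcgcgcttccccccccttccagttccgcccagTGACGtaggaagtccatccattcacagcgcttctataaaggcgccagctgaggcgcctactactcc
Jun, chr4:95052223-95052352, minus strand: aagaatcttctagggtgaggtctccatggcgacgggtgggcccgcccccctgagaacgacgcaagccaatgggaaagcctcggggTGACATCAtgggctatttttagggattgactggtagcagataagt
Junb, chr8:84978749-84978878, minus strand: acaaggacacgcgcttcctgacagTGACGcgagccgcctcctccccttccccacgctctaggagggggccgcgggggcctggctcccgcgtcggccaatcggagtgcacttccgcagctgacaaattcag
Egr2, chr10:67537739-67537868, plus strand: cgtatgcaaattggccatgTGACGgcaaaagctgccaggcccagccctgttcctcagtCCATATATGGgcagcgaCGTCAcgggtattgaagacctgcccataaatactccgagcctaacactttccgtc
Over the 250 bases upstream, searched on both strands, TGACG was found in 17.7% of 32817 mouse promoters, TGACNTCA in 7.49% and a CArG box in 1.47%; TGACGTCA is a case of TGACNTCA and also contains TGACG. Fos held TGACG at -129 to -125 and at -66 to -62 from its start, and Jun held TGACATCA, a case of TGACNTCA, at -45 to -38. Junb held TGACG at -106 to -102. The Egr2 window, chosen among 5 in RefSeq, held a CArG box at -72 to -63 and TGACG at -111 to -107 and, on the other strand, at -55 to -51. Another of those 5 windows held neither motif in its 250 bases. The letters TGAGTCA or TGACTCA, present in 4.46% of promoters, were not in the upstream windows of these 7 genes, nor was the full TGACGTCA, present in 1.55%. A motif that is not found says only that these letters are not in the window. In the GRCm38 annotation of GENCODE, the members with no sequence shown include Fosb at chr7:19302696-19310051, Fosl1 at chr19:5447547-5455946, Fosl2 at chr5:32135801-32157842, Ier3 at chr17:35821684-35822923 and Myc at chr15:61985391-61990374.

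DMSO-treated cells of the 3 states already differed in these genes, as the plot of levels by cell state shows. Junb was the most abundant member per kilobase of exon in all 3 states, at 114 CPM per kb in Luc myoblasts, 134 in day 1 cells and 181.8 in myotubes, and Fosb the least, at 0.164, 0.0815 and 0.179 CPM per kb. Fosl1, which encodes the FOS-family protein FRA-1 of proliferating cells, was the second in myoblasts at 54.3 CPM per kb and fell to 3.99 in day 1 cells and 4.60 in myotubes. By edgeR's quasi-likelihood test, with p-values adjusted after Benjamini and Hochberg over every gene of a comparison and called under 0.05, 9 of 9 members differed between day 1 cells and Luc myoblasts, where 63.6% of all 12765 genes did, and 7 of 9 between myotubes and Luc myoblasts, where 69.4% did. With shares of all genes this high, these counts are not a result about the members.
Fosl1 was at 96.1, 107 and 101 CPM in Luc myoblasts, at 8.63, 8.13 and 5.56 CPM in day 1 cells and at 7.84, 6.79 and 11.1 CPM in myotubes. Its log2 difference from myoblasts was -3.77 ± 0.15 (SE; adjusted p = 4.6e-19) in day 1 cells and -3.52 ± 0.15 in myotubes, with no overlap of the samples, while day 1 cells and myotubes overlapped (0.25 ± 0.17, adjusted p = 0.28). Myc was also lower in the post-mitotic states, at 61.2, 61.2 and 67.9 CPM in myoblasts, 27.3, 26.3 and 29.7 CPM in day 1 cells and 25.7, 22.3 and 22.0 CPM in myotubes, log2 differences of -1.19 and -1.41 from myoblasts. The last step, from day 1 cells to myotubes (-0.22 ± 0.08, adjusted p = 0.0319), lost its call without replicate 2 or 3 and under 3 of 7 other settings.
Egr2 and Egr1 were highest in day 1 cells. Egr1 lay at 167 to 171 CPM there, against 73.0 to 108 CPM in myoblasts and 78.9 to 87.9 CPM in myotubes, whose levels did not pass the test against each other (-0.14 ± 0.13, adjusted p = 0.354). Egr2 lay at 5.49 to 6.13 CPM in myoblasts, 21.1 to 24.6 CPM in day 1 cells and 12.3 to 14.6 CPM in myotubes. Fos was higher in both low-serum states (log2 1.31 and 1.38), and Fosl2 and Junb were highest in myotubes (log2 1.38 and 0.71 against myoblasts). Jun was lowest in myotubes (-0.37 ± 0.06), and Ier3 was lowest in day 1 cells at 16.1 to 18.7 CPM, with myoblasts and myotubes not passing the test (adjusted p = 0.413).

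**Figure D1:**
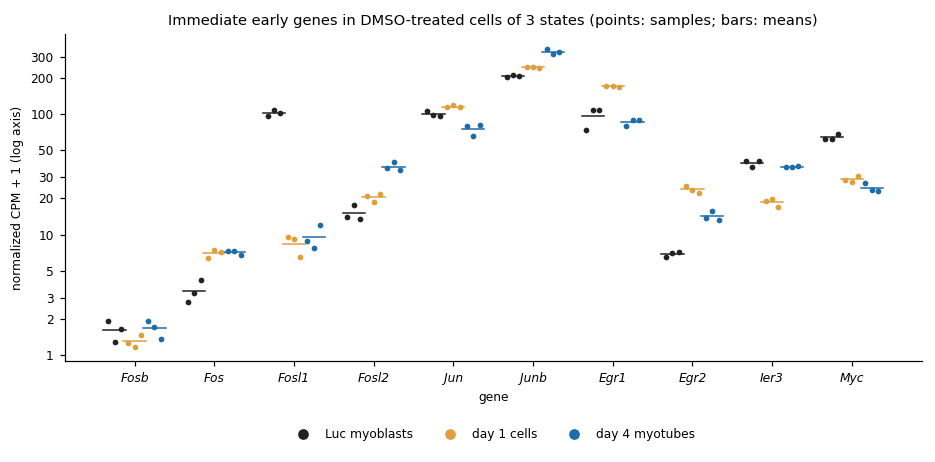
Normalized CPM plus 1 on a log axis for each of the 10 genes in DMSO-treated Luc myoblasts, day 1 cells and day 4 myotubes, 3 samples per state as points and their means as bars. Fosl1 and Myc sit highest in myoblasts, Egr1 and Egr2 in day 1 cells, and Fosl2 and Junb in myotubes.

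The first inhibitor comparison asked how each inhibitor changes gene expression in proliferating control myoblasts. Fosl1, Ier3 and Myc rose under all 3 inhibitors, Egr1, Egr2 and Junb fell under all 3, and Jun rose under piericidin and antimycin but fell under oligomycin. Piericidin called 8 of 9 members, 5 higher and 3 lower, where 61.7% of 11978 genes were called, antimycin the same numbers, where 63.2% were, and oligomycin 7 of 9, 3 higher and 4 lower, where 50.8% were. The median log2 fold change over the 9 members was 0.67, 1.49 and 0.06, against -0.004, -0.005 and -0.015 over all genes. The comparisons share their DMSO samples, and since the labels do not say whether replicates were separate cultures, p-values measure the spread between these samples.
Myc stood at 61.2, 61.2 and 67.9 CPM in DMSO, 219, 229 and 238 CPM in piericidin, 352, 342 and 348 CPM in antimycin and 198, 193 and 186 CPM in oligomycin, so that the 4 groups did not overlap. Its log2 fold changes were 1.89 ± 0.06, 2.50 ± 0.06 and 1.61 ± 0.06 (SE; adjusted p at most 4.1e-20). Antimycin exceeded piericidin by 0.61 ± 0.06, and piericidin exceeded oligomycin by 0.27 ± 0.06 (adjusted p = 0.000271).
Among the AP-1 subunits, Jun, which encodes the JUN protein itself, and Fosl2, which encodes FRA-2, rose under piericidin and antimycin and did not rise under oligomycin. Jun was at 105, 96.7 and 95.3 CPM in DMSO, 165, 155 and 169 CPM in piericidin, 353, 344 and 329.8 CPM in antimycin and 71.8, 68.4 and 72.0 CPM in oligomycin. Its log2 fold change was 0.76 ± 0.05, 1.83 ± 0.05 and -0.47 ± 0.05 (adjusted p at most 5.58e-09), with every oligomycin sample below every DMSO sample. Fosl2 went from 12.5 to 16.8 CPM in DMSO to 24.6 to 31.2 CPM in piericidin and 65.6 to 74.8 CPM in antimycin, but lay at 13.6 to 15.4 CPM in oligomycin, which did not pass the test (0.07 ± 0.14, adjusted p = 0.716). Fosl1 rose by log2 0.67, 1.49 and 0.44. Fos itself stayed below 3.3 CPM in DMSO and in each inhibitor and passed the test with none, at -0.76 ± 0.37, -0.01 ± 0.35 and 0.06 ± 0.35, and its piericidin value passed without DMSO replicate 1 (adjusted p = 0.0461).
Junb, whose product pairs with FOS proteins and can restrain JUN, moved against Jun under piericidin and antimycin and fell with it under oligomycin. It was at 200.2, 212 and 207 CPM in DMSO, 103, 119 and 104 CPM in piericidin and 103, 96.3 and 91.4 CPM in antimycin, log2 fold changes of -0.89 ± 0.06 and -1.05 ± 0.06. Under oligomycin it was at 181, 174 and 191 CPM (-0.17 ± 0.06, adjusted p = 0.0148), a call lost without oligomycin replicate 1 or 2 or DMSO replicate 2.
Egr1 was lower with all 3 inhibitors. Egr1, a zinc-finger factor induced by ERK signalling, was at 73.0, 108 and 107 CPM in DMSO, 12.5, 12.4 and 10.3 CPM in piericidin, 22.1, 21.1 and 23.0 CPM in antimycin and 68.7, 72.1 and 72.7 CPM in oligomycin. The log2 fold changes were -3.00 ± 0.12, -2.08 ± 0.11 and -0.42 ± 0.10, and antimycin left Egr1 higher than piericidin did, by 0.92 ± 0.13 (adjusted p = 8.91e-07). Egr2 was at 5.49, 6.02 and 6.13 CPM in DMSO, 1.02, 0.662 and 1.06 CPM in piericidin, 1.29, 0.795 and 2.77 CPM in antimycin and 2.16, 4.00 and 2.19 CPM in oligomycin. Its oligomycin call (-1.05 ± 0.37, adjusted p = 0.0189) was lost without oligomycin replicate 1 or 3.
Ier3, which encodes a small survival protein and ERK substrate, rose from 35.6 to 40.2 CPM to 63.8 to 69.8 CPM in piericidin, 156 to 163 CPM in antimycin and 59.7 to 63.3 CPM in oligomycin. The log2 fold changes were 0.83, 2.08 and 0.69, and piericidin and oligomycin did not pass the test against each other (0.13 ± 0.06, adjusted p = 0.101). Antimycin against piericidin called 7 of 9 members, 6 of them higher, where 37.2% of all genes were called. The lower call, Junb (-0.16 ± 0.06, adjusted p = 0.0369), was lost with no count filter, with the compared groups alone and without antimycin replicate 2 or 3 or piericidin replicate 2.

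**Figure D2:**
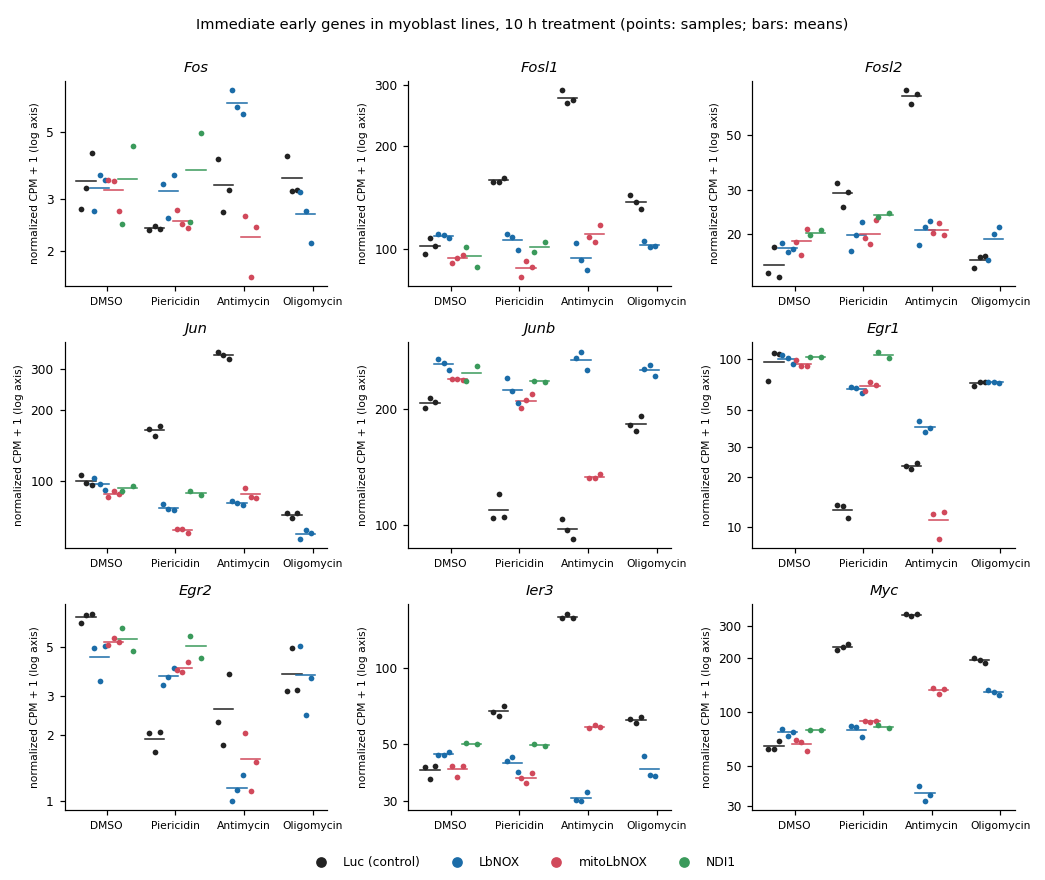
Normalized CPM plus 1 on a log axis for 9 immediate early genes in the Luc, LbNOX, mitoLbNOX and NDI1 myoblast lines after 10 h of DMSO or inhibitor, with samples as points and means as bars. In the Luc line Myc, Jun, Fosl1, Fosl2 and Ier3 stand highest in antimycin and Egr1 lowest in piericidin, while in the LbNOX line Myc in antimycin lies at 31.3 to 38.0 CPM, below every DMSO sample of that line.

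LbNOX, mitoLbNOX and NDI1 oxidize NADH by other routes, in the cytosol, the matrix or in place of complex I, and the second comparison asked which responses remain in their presence. In LbNOX myoblasts Fosl1, Fosl2, Ier3 and Myc, which rose under piericidin in Luc cells, did not pass the test (log2 -0.02, 0.21, -0.10 and 0.08), and under antimycin the direction of several members turned. Piericidin called 3 of 9 members in LbNOX cells, all lower, where 8.87% of genes were called. Antimycin called 7 of 9, 1 higher and 6 lower, where 46.1% of genes were called, and oligomycin 4 of 9, 1 higher and 3 lower, where 35.2% were. The difference from the response of Luc cells, tested as an interaction, passed for 8 of 9 members under piericidin (44.3% of all genes), 9 of 9 under antimycin (51.5%) and 3 of 9 under oligomycin (7.98%). The LbNOX interactions share the Luc DMSO and treated samples with the comparisons above.
Myc was at 79.7, 72.8 and 76.2 CPM in LbNOX cells with DMSO, 83.1, 81.8 and 72.1 CPM with piericidin, 38.0, 31.3 and 33.7 CPM with antimycin and 132, 129 and 124 CPM with oligomycin. Every antimycin sample lay below, and every oligomycin sample above, every DMSO sample, while piericidin overlapped DMSO (0.08 ± 0.06, adjusted p = 0.473). The fall under antimycin was -1.11 ± 0.06 and the rise under oligomycin 0.78 ± 0.06. These responses were lower than those of Luc cells by log2 1.81 ± 0.08 for piericidin, 3.61 ± 0.09 for antimycin and 0.84 ± 0.08 for oligomycin (adjusted p at most 3.05e-08).
Jun fell under all 3 inhibitors in LbNOX cells, by log2 0.31, 0.23 and 0.69, and the interactions were -1.07 ± 0.07 and -2.06 ± 0.07 for piericidin and antimycin. For oligomycin the Jun interaction was -0.22 ± 0.07 (adjusted p = 0.0673), and it passed without Luc DMSO replicate 1, LbNOX DMSO replicate 3 or LbNOX oligomycin replicate 2 and with DESeq2 size factors. Fosl2 passed the test with none of the 3 inhibitors in LbNOX cells, except with antimycin without antimycin replicate 1 (0.38, adjusted p = 0.0363), and Ier3 fell from 44.4 to 45.9 CPM to 29.1 to 31.4 CPM with antimycin (-0.55 ± 0.07). Fosl1 lay at 85.9 to 103 CPM with antimycin against 107 to 109.6 CPM (-0.17 ± 0.06, adjusted p = 0.0206), a call lost without DMSO replicate 1 or antimycin replicate 2 or 3. The Ier3 call under oligomycin (-0.17 ± 0.07, adjusted p = 0.0437) was lost under 4 of 7 other settings and in 5 of 6 fits that left out a library, all but that without oligomycin replicate 1.
Fos, a low member of this set, rose in LbNOX cells with antimycin. It was at 1.74, 2.59 and 2.46 CPM with DMSO and 5.91, 5.07 and 4.76 CPM with antimycin, without overlap (1.24 ± 0.34, adjusted p = 0.00297). Its interaction (1.25 ± 0.49, adjusted p = 0.0314) lost the call in 5 of 12 fits that left out a library (without Luc DMSO replicate 3, Luc antimycin replicate 2 or 3, LbNOX DMSO replicate 1 or LbNOX antimycin replicate 1), with no count filter and with plate position in the fit.
Egr1 still fell in LbNOX cells, by less than in Luc cells with piericidin and antimycin. It was at 105, 101 and 93.0 CPM with DMSO, 67.2, 66.4 and 62.2 CPM with piericidin and 41.8, 35.8 and 37.9 CPM with antimycin, log2 -0.59 and -1.33, with interactions of 2.42 ± 0.16 and 0.74 ± 0.15. With oligomycin it fell by log2 0.44 in LbNOX cells and 0.42 in Luc cells, and the interaction did not pass (-0.02 ± 0.15, adjusted p = 0.965). Egr2 went the other way from Egr1 in the antimycin interaction (-2.68 ± 0.78, adjusted p = 0.00476): its antimycin samples held 0, 1 and 3 counts against 46, 39 and 43 with DMSO. The ratio of those summed counts, 4 against 128, was 0.0407 after scaling to depth (95% exact interval 0.0109 to 0.107, covering counting error only). Junb, which had fallen in Luc cells, was at 250.1 to 279 CPM with antimycin against 251 to 267 CPM with DMSO (0.07 ± 0.06, adjusted p = 0.314). With piericidin it fell slightly (-0.20 ± 0.06, adjusted p = 0.0229), a call lost without DMSO replicate 1 or 2 or piericidin replicate 3 and when the compared groups were fitted alone.
Markers of proliferating myoblasts also changed under the inhibitors. Myod1, Myf5, Mki67, Ccnb1 and Top2a summed to 926.5 to 960.5 CPM in Luc DMSO samples, 798.7 to 871.1 in piericidin, 729.2 to 770.8 in antimycin and 741.8 to 759.1 in oligomycin. In LbNOX cells they summed to 875.2 to 901.1 CPM with DMSO, 719.3 to 807.7 CPM with piericidin, 672.6 to 724.1 CPM with oligomycin and 425.4 to 464.7 CPM with antimycin, the lowest of the myoblast conditions. Of the 5, 2 rose and 3 fell in Luc cells with antimycin, and in LbNOX cells none rose, while 4 fell with antimycin and 3 with each of piericidin and oligomycin. The 8 myotube markers summed to 17.4 to 21.6 CPM with DMSO and 83.6 to 92.6 CPM with antimycin in Luc cells, and to 15.6 to 22.9 CPM and 32.3 to 39.2 CPM in LbNOX cells. Only 1 of the 8 passed the count filter in myoblasts and was tested. It rose with antimycin in both lines (log2 2.435 and 1.077). The part of these shifts in the member changes was not tested.

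In mitoLbNOX cells Myc rose and Egr1 fell with both piericidin and antimycin, which were not tested against each other there. With piericidin, 3 of 9 members were called (11.2% of all genes), Myc higher (0.45 ± 0.06) and Jun (-0.50 ± 0.05) and Egr1 (-0.42 ± 0.10) lower, and Junb, which did not pass (-0.17 ± 0.06, adjusted p = 0.0571), did so under 4 of 7 other settings. With antimycin, 6 of 9 were called (47.7%), Fosl1, Ier3 and Myc higher and Junb, Egr1 and Egr2 lower, the same directions as in Luc cells. Egr1 was at 98.4, 91.0 and 89.9 CPM with DMSO, 64.0, 72.5 and 69.7 CPM with piericidin and 11.02, 7.51 and 11.4 CPM with antimycin, a fall of -3.17 ± 0.12 that exceeded that of Luc cells by -1.10 ± 0.17 (adjusted p = 6.1e-06). Myc went from 69.3, 67.3 and 60.0 CPM to 136, 126 and 134 CPM with antimycin (1.05 ± 0.06), less than in Luc cells (-1.44 ± 0.08). Jun, at 84.6 to 89.7 CPM with DMSO, did not pass the test with antimycin (0.04 ± 0.05, adjusted p = 0.562). The interaction with the Luc line passed for 8 of 9 members with piericidin (42.9% of all genes) and 7 of 9 with antimycin (31.7%), where the Junb call was lost with no count filter and without Luc DMSO replicate 2 or Luc antimycin replicate 3. The 5 myoblast markers summed to 826.4 to 893.9 CPM with DMSO, 719.1 to 752.2 CPM with piericidin, where none rose and 2 fell, and 562.1 to 595.6 CPM with antimycin, where 1 rose and 3 fell. The 8 myotube markers summed to 14.5 to 20.2 CPM with DMSO, 29.1 to 36.0 CPM with piericidin and 59.5 to 63.5 CPM with antimycin, with only 1 of the 8 tested, higher with both. The part of these changes in the member changes was not tested.
Set against each other under antimycin, LbNOX and mitoLbNOX cells differed in 8 of 9 members (44.3% of all genes). LbNOX cells had more Egr1 (1.93 ± 0.12), Junb (1.00 ± 0.06) and Fos (2.08 ± 0.36) and less Myc (-1.95 ± 0.06), Ier3 (-0.96 ± 0.07) and Fosl1 (-0.24 ± 0.06). The calls of Jun (-0.13 ± 0.05, adjusted p = 0.0361) and Egr2 (-1.87 ± 0.77, adjusted p = 0.0499) were lost under most alternatives, and the Egr2 value fell to -1.16 without mitoLbNOX replicate 1.
In NDI1 cells, piericidin called none of the 9 members by edgeR, where 0.00835% of all genes were called, and none by DESeq2 or at an unadjusted p under 0.05. Egr1 was at 103 and 103 CPM with DMSO and 110.1 and 101 CPM with piericidin, and Myc at 78.7 and 78.7 CPM and 83.3 and 80.2 CPM. The interaction with the Luc line passed for 8 of 9 members (42.7% of all genes), by 3.06 ± 0.18 for Egr1 and -1.80 ± 0.09 for Myc, with 2 samples per NDI1 condition. Before any inhibitor, Myc and Junb were higher in LbNOX than in Luc cells (0.26 ± 0.06 and 0.33 ± 0.06, 2 of 9 members, where 2.66% of all genes were called), and Junb, Ier3 and Myc were higher in NDI1 cells (0.24 ± 0.06, 0.35 ± 0.07 and 0.30 ± 0.07, 3 of 9, where 4.58% were). No member was called between mitoLbNOX and Luc cells by edgeR (1.74% of all genes), 3 had an unadjusted p under 0.05, and DESeq2 called 1, Junb. The Myc call in LbNOX cells was lost when the compared groups were fitted alone (adjusted p = 0.128) and without LbNOX DMSO replicate 1 or Luc DMSO replicate 1 or 2. The 3 NDI1 calls were also lost when the compared groups were fitted alone, with adjusted p values of 0.0572, 0.108 and 0.102. The Junb call in NDI1 cells was lost without Luc DMSO replicate 1, and the Ier3 call with no count filter. With 1 NDI1 DMSO sample left, Junb was at log2 0.18 (without replicate 2) and Myc at 0.28 (without replicate 1).

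Chloramphenicol, which starves the respiratory chain of its mitochondrially encoded subunits over 48 h, was given to Luc and LbNOX cells. In Luc cells it called 3 of 9, where 8.45% of 11702 genes were called. Myc was at 48.0 and 46.7 CPM with DMSO and 73.2 and 70.2 CPM with chloramphenicol (0.65 ± 0.09, adjusted p = 0.00298), and Egr1 was at 66.6 and 72.8 CPM and 48.7 and 44.1 CPM (-0.54 ± 0.08, adjusted p = 0.0056). Junb was lower (-0.32 ± 0.07, adjusted p = 0.025). The Egr1 and Junb calls were lost without DMSO replicate 2, which left Myc alone of the 9, and the Junb call also without DMSO replicate 1 or chloramphenicol replicate 2 and when the groups were fitted alone. In LbNOX cells no member was called by edgeR (0.931% of genes) or DESeq2, and 2 had an unadjusted p under 0.05, with Myc at 51.0 and 59.4 CPM and 54.0 and 57.1 CPM, and no member passed edgeR's test of the difference between the lines (0.53% of genes), where 2 had an unadjusted p under 0.05. For Myc that difference was -0.61 ± 0.13 (adjusted p = 0.121), and it passed with no count filter (adjusted p = 0.0216) and by DESeq2's Wald test (adjusted p = 0.0328). With 48 h of DMSO, 1 of 9 members, Junb, was called higher in LbNOX than in Luc cells (0.231% of genes). That call was lost with the replicate block and with the compared groups alone.

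Day 1 cells, which the authors describe as largely post-mitotic and not yet differentiated, were treated with piericidin or oligomycin. Myc rose there with oligomycin, as in myoblasts, and was lower, not higher, with piericidin. Piericidin called 4 of 9 members in day 1 cells, all lower, where 2.75% of 11827 genes were called, and oligomycin 4 of 9, 1 higher and 3 lower, where 20.7% were. Of 8 myotube markers, 1 rose and 5 fell with either inhibitor, and they summed to 10970 to 11570 CPM with DMSO, 11200 to 11580 CPM with piericidin and 10880 to 11050 CPM with oligomycin. Of 5 myoblast markers, 1 rose and 2 fell with oligomycin, and 0 were called with piericidin. They summed to 344.4 to 364.8 CPM with DMSO, 354.4 to 363.5 CPM with piericidin and 313.9 to 339.3 CPM with oligomycin. The part of these marker changes in the member changes was not tested. Myc was at 27.3, 26.3 and 29.7 CPM with DMSO, 19.4, 18.1 and 23.4 CPM with piericidin and 66.7, 67.0 and 69.0 CPM with oligomycin, with no overlap. Its rise with oligomycin was 1.31 ± 0.09 (adjusted p = 1.97e-06), and its fall with piericidin -0.45 ± 0.10 (adjusted p = 0.0357) lost the call in 5 of 6 fits that left out a library, all but that without piericidin replicate 3, and when the 2 groups were fitted alone.
Egr1 fell from 171, 171 and 167 CPM to 72.3, 89.8 and 94.5 CPM with piericidin and 93.2, 89.4 and 57.7 CPM with oligomycin. Egr2 fell from 21.1 to 24.6 CPM to 7.04 to 8.23 and 9.46 to 11.3 CPM, log2 -1.56 and -1.08. Junb fell by log2 0.62 and 0.34. Fosl1 was at 5.56 to 8.63 CPM with DMSO and 2.95 to 4.72 CPM with piericidin (-1.02 ± 0.25, adjusted p = 0.0543), which passed without piericidin replicate 2 and with no count filter. Oligomycin left Myc higher than piericidin did by 1.76 ± 0.10, and Ier3 by 0.71 ± 0.12, 2 of the 6 members called in that comparison, where 14.7% of genes were called. Of the other calls there, Fosl1 was lost in 4 fits that left out a library, and Egr2 in 4 such fits and under 4 of 7 other settings.

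In untransduced myotubes, complex I and complex III inhibition lowered the same 6 members, Fos, Fosl1, Junb, Egr1, Egr2 and Ier3, and raised none. Piericidin called these 6 of 9 where 8.99% of 12491 genes were called, and antimycin these 6 where 12.9% were, with median log2 fold changes over the members of -0.42 and -0.61 against 0.007 and 0.011 over all genes. Of 8 myotube markers, 2 rose and 4 fell with piericidin, 3 rose and 4 fell with antimycin and 2 rose and 3 fell with oligomycin. They summed to 12650 to 13260 CPM with DMSO, 14600 to 14810 CPM with piericidin, 14030 to 14190 CPM with antimycin and 14860 to 15230 CPM with oligomycin, and the part of this in the member changes was not tested. The treatments share their DMSO samples. No member passed the test of antimycin against piericidin by edgeR (0.656% of all genes), and Junb, the 1 member with an unadjusted p under 0.05, did so by DESeq2's Wald test (log2 -0.19, adjusted p = 0.00732) and without piericidin replicate 3 (adjusted p = 0.00927).
Fosl1 was at 7.84, 6.79 and 11.1 CPM with DMSO, 2.42, 2.65 and 2.73 CPM with piericidin and 3.11, 2.69 and 2.09 CPM with antimycin, log2 -1.70 ± 0.27 and -1.67 ± 0.26. Ier3 was at 35.2, 35.3 and 36.1 CPM, 17.7, 18.2 and 20.5 CPM and 19.0, 19.2 and 16.7 CPM, log2 -0.90 ± 0.09 and -0.94 ± 0.09. Both groups lay wholly below DMSO for each of these genes, the reverse of their direction in Luc myoblasts. Fos fell from 5.78 to 6.39 CPM to 3.16 to 3.79 CPM with piericidin, and that call (adjusted p = 0.0376) was lost with no count filter and in each of the 6 fits that left out a library. With antimycin Fos lay at 1.56 to 3.18 CPM (-1.40 ± 0.26, adjusted p = 0.000483). Myc did not pass with either inhibitor, at 23.7, 25.0 and 23.7 CPM and 22.2, 24.4 and 27.6 CPM against 25.7, 22.3 and 22.0 CPM with DMSO, differences of 0.06 ± 0.09 and 0.09 ± 0.09.
Oligomycin differed from both by raising Myc. Myc stood at 80.0, 77.3 and 75.6 CPM (1.74 ± 0.09, adjusted p = 7.25e-14), above piericidin by 1.68 ± 0.09, while 6 members fell, Fosl1, Fosl2, Jun, Junb, Egr1 and Egr2, so that 7 of 9 were called where 33.3% of genes were. Egr1 lay at 47.6, 45.0 and 48.3 CPM, below DMSO (78.9, 87.9 and 87.8 CPM) and below piericidin (66.2, 69.2 and 61.4 CPM). Jun fell to 52.8 to 58.3 CPM from 64.7 to 80.0 CPM (-0.45 ± 0.07). Fos and Ier3, which fell with piericidin, were at 4.51 to 7.56 and 30.1 to 36.1 CPM with oligomycin and did not pass against DMSO (adjusted p = 0.929 and 0.444). The Fosl2 call (-0.26 ± 0.09) was lost with plate position in the fit (log2 -0.17, adjusted p = 0.164), with no count filter, with the compared groups alone and without DMSO replicate 2 or oligomycin replicate 1 or 2.

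Further conditions asked what accompanies ATP synthase inhibition in myotubes, namely complex I inhibition, uncoupling and low oxygen. Each lowered Myc against oligomycin alone. Myc was at 25.4, 29.2 and 29.3 CPM with oligomycin and piericidin, 46.6, 47.7 and 47.5 CPM with oligomycin and BAM15 and 38.3, 32.2 and 41.6 CPM with oligomycin in 5% oxygen. The differences from oligomycin alone were -1.48 ± 0.09, -0.72 ± 0.08 and -1.04 ± 0.09 (adjusted p at most 3.5e-07), and no sample of these groups reached the oligomycin samples.
With piericidin added to oligomycin, 6 of 9 members differed from oligomycin alone (20.9% of all genes), Jun and Egr1 higher and Fos, Fosl1, Ier3 and Myc lower. The Fos call was lost without oligomycin replicate 3 and the Fosl1 call with the compared groups alone. No member passed the test against piericidin alone by edgeR (1.19% of genes) or DESeq2, though 5 had an unadjusted p under 0.05, and against DMSO the same 6 members as with piericidin alone were called, all lower (12.8%). Fosl1 reached 2.37, 0.591 and 1.42 CPM there (-2.53 ± 0.29), and Fos, at 2.89 to 3.84 CPM (-0.89 ± 0.25, adjusted p = 0.0195), lost the call without oligomycin and piericidin replicate 1 or 3 or DMSO replicate 1 or 2.
With BAM15 added, 8 of 9 members differed from oligomycin alone, 7 higher and Myc lower (26.1% of genes). The Fosl2 call was lost without oligomycin and BAM15 replicate 1 and the Egr2 call with no count filter. No member passed against BAM15 alone by edgeR (1.7%) or DESeq2, and there were 3 at an unadjusted p under 0.05. BAM15 alone called 5 of 9 members against DMSO (25.4%), Fosl2, Jun, Ier3 and Myc higher and Egr1 lower. Ier3 went from 35.2, 35.3 and 36.1 CPM to 91.3, 78.3 and 92.8 CPM with BAM15 (1.31 ± 0.08) and 70.9, 79.7 and 81.5 CPM with both (1.12 ± 0.08), and Myc went to 37.9, 41.8 and 40.3 CPM with BAM15 (0.79 ± 0.09). The combination called 3 of 9 members against DMSO (23.2%), Ier3 and Myc higher and Egr1 lower. The Fosl2 and Jun calls with BAM15 (0.26 ± 0.09 and 0.24 ± 0.07) were lost with no count filter and without BAM15 replicate 1. The Fosl2 call was lost in 5 of 6 fits that left out a library and by DESeq2's Wald test, and the Jun call without DMSO replicate 2 and with the compared groups alone. Of the 8 myotube markers, 4 rose and 1 fell with BAM15, and they summed to 15120 to 15820 CPM against 12650 to 13260 CPM with DMSO. With oligomycin and BAM15 they summed to 14080 to 15050 CPM, 2 higher and 1 lower, and with oligomycin and piericidin to 14560 to 14950 CPM, 2 higher and 3 lower. The 5 myoblast markers summed to 211.4 to 232 CPM with BAM15 and 214.7 to 228.4 CPM with oligomycin and BAM15, against 244.5 to 251.6 CPM with DMSO. Of these, 1 rose and 1 fell in each. The part of the markers in the member changes was not tested.
Low oxygen raised 7 of 9 members and lowered none, where 22.1% of all genes were called. Ier3 was at 97.1, 102 and 95.8 CPM (1.47 ± 0.08), Myc at 39.2, 38.2 and 35.7 CPM (0.69 ± 0.09), Jun at 104, 103 and 102 CPM (0.47 ± 0.07) and Egr1 at 113, 112 and 103 CPM (0.36 ± 0.06), each above every DMSO sample in standard oxygen. Fosl2 and Junb rose by log2 0.41 and 0.27. Fosl1 rose by 0.71 ± 0.23 (adjusted p = 0.0303), a call lost without DMSO replicate 1 or 2 or low-oxygen replicate 2. The 5 myoblast markers summed to 156.9 to 164.1 CPM in low oxygen against 244.5 to 251.6 CPM in standard oxygen, 4 of them lower and none higher, with Mki67 at 1.33 to 2.64 CPM against 11.8 to 13.6 CPM, and the 8 myotube markers summed to 14490 to 14920 CPM against 12650 to 13260 CPM, 3 of them higher and 2 lower. The part of these cells in the member changes was not tested.
Within 5% oxygen, oligomycin called 4 of 9 members, Jun, Junb, Egr1 and Ier3, all lower (4.26% of genes), and Myc did not pass (0.00 ± 0.09, adjusted p = 0.99). The difference between the oligomycin responses in low and standard oxygen passed for 5 of 9 members (17.4% of genes), with -1.74 ± 0.12 for Myc, -0.78 ± 0.12 for Ier3, 0.59 ± 0.09 for Egr1, 0.34 ± 0.07 for Junb and 0.64 ± 0.20 for Egr2, whose call was lost in 5 of 12 fits that left out a library, with no count filter and by DESeq2 (oligomycin replicate 1, DMSO replicate 2, low-oxygen DMSO replicate 2 or 3 and low-oxygen oligomycin replicate 3). Ier3 lay at 52.1, 51.4 and 55.8 CPM with oligomycin in low oxygen, below the low-oxygen DMSO samples and above the DMSO samples in standard oxygen. The calls of Jun and Egr1 within low oxygen were lost without low-oxygen DMSO replicate 1 or 2 or low-oxygen oligomycin replicate 2, which left 2 of 9 members called, and the Jun call also without low-oxygen DMSO replicate 3 or low-oxygen oligomycin replicate 1. The Egr1 call was also lost with no count filter and with the compared groups alone. Compared with oligomycin in standard oxygen, oligomycin in low oxygen left 8 of 9 members different, 7 higher and Myc lower (33.3% of genes). The 5 myoblast markers summed to 181.8 to 188.5 CPM with oligomycin in low oxygen. They summed to 156.9 to 164.1 CPM with low-oxygen DMSO, against which 2 rose and 0 fell. With oligomycin in standard oxygen the sum was 238 to 256.3 CPM, against which 1 rose and 4 fell. The part of this shift in the member changes was not tested.

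**Figure D3:**
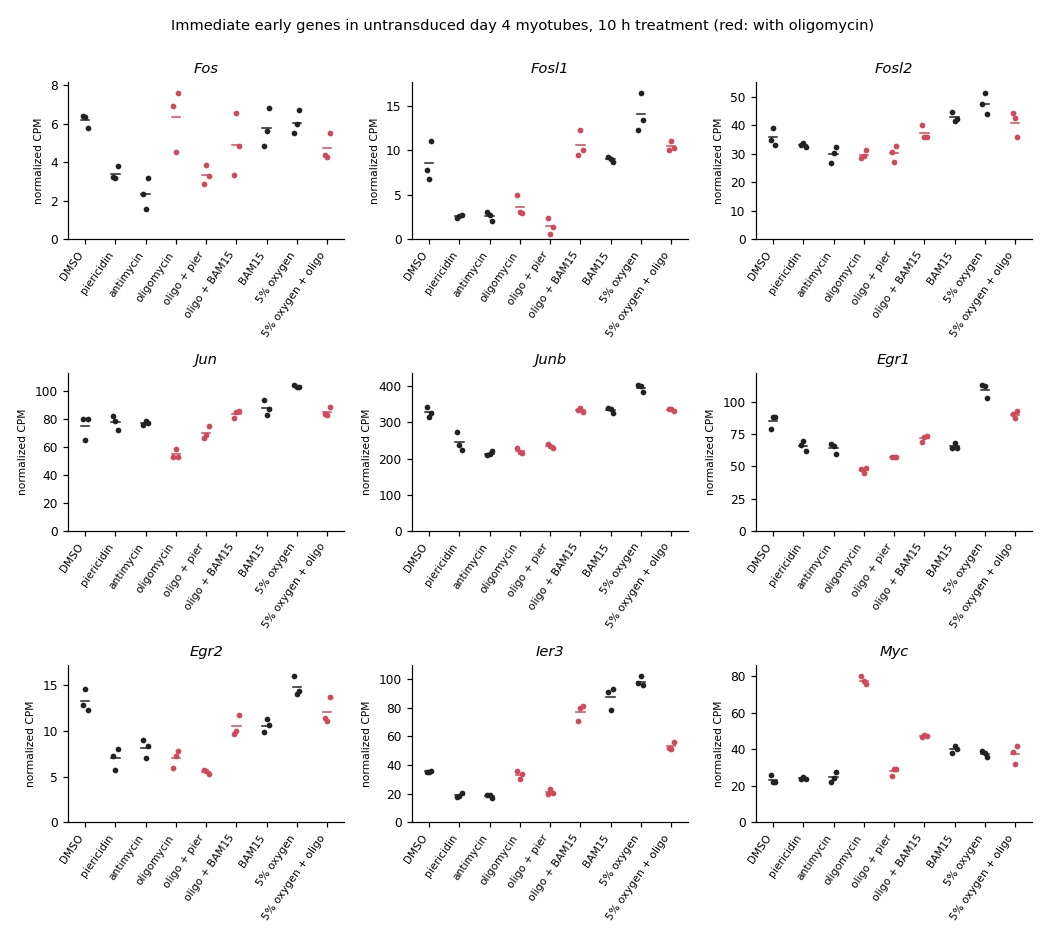
Normalized CPM on linear axes that start at 0 for 9 immediate early genes in untransduced day 4 myotubes in 9 conditions, 3 samples each as points with their means as bars, and conditions with oligomycin in red. Myc is highest with oligomycin alone, at 75.6 to 80.0 CPM, and Ier3 is highest in 5% oxygen and lowest with piericidin or antimycin.

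Myotubes that carried LbNOX or GFP alone were treated to ask whether oxidizing the cytosol changes these responses once cells have differentiated. No member passed the test of a difference in response between LbNOX and GFP myotubes for piericidin or oligomycin by edgeR, where 0% of 12395 genes did, or by DESeq2. At an unadjusted p under 0.05 stood 1 member for piericidin, Fosl2 (log2 -0.41), and 0 for oligomycin. With DMSO, LbNOX and GFP myotubes differed in none of the 9 members (0.00807% of genes) by edgeR or DESeq2, and Fosl2 alone had an unadjusted p under 0.05. The GFP groups had 2 samples each. In GFP myotubes piericidin called 6 of 9 members, all lower (3.08% of genes), and oligomycin 7 of 9, Fos and Myc higher and 5 lower (25.8%). In LbNOX myotubes piericidin called 7 of 9, all lower (6.77%), and oligomycin 8 of 9, Fos and Myc higher and 6 lower (31.8%). Of the 8 myotube markers, 2 rose and 1 fell with piericidin in GFP and 2 rose and 3 fell in LbNOX myotubes, and 2 rose and 4 fell with oligomycin in both. They summed to 11690 to 12140 CPM with DMSO, 13630 to 14730 CPM with piericidin and 12990 to 13120 CPM with oligomycin in GFP myotubes, and to 11820 to 12630, 14370 to 15080 and 12950 to 13510 CPM in LbNOX myotubes. The 5 myoblast markers went from 226.1 to 241.3 CPM with DMSO to 180.2 to 193.8 CPM with oligomycin in GFP and from 222.7 to 223.4 CPM to 179.7 to 186.9 CPM in LbNOX myotubes, and the part of these changes in the member changes was not tested.
Myc was at 27.1 and 23.4 CPM in GFP myotubes with DMSO, 21.2 and 25.9 CPM with piericidin and 88.6 and 91.0 CPM with oligomycin (1.82 ± 0.12). In LbNOX myotubes it was at 25.4, 24.1 and 25.3 CPM with DMSO, 17.8, 20.4 and 23.7 CPM with piericidin and 84.6, 82.9 and 80.0 CPM with oligomycin (1.73 ± 0.10), and the difference between the responses to oligomycin was -0.10 ± 0.15. Fos rose with oligomycin in both, to 11.5 and 12.5 CPM in GFP and 11.9, 13.2 and 13.6 CPM in LbNOX myotubes (log2 0.79 ± 0.23 and 0.97 ± 0.19), and the GFP call was lost with the compared groups alone and without GFP DMSO replicate 2 or GFP oligomycin replicate 1 or 2. The Fosl1 call in GFP myotubes was lost without the same libraries, and the Fosl1 and Fosl2 calls in LbNOX myotubes with oligomycin were each lost in 4 of 6 fits that left out a library. The Fosl2 call there (-0.27 ± 0.10, adjusted p = 0.0497) was also lost under 5 of 7 other settings, with adjusted p from 0.051 to 0.21. In untransduced myotubes Fos did not pass with oligomycin, and the difference between transduced and untransduced myotubes was not tested. Egr1 fell in all 4 comparisons, by log2 0.64 and 0.69 with piericidin and 0.86 and 0.84 with oligomycin. With the GFP piericidin and DMSO groups fitted alone, none of the 6 piericidin calls passed, and 3 of 9 members were called without GFP piericidin replicate 2.

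The responses of the cell states were then set against each other in a fit over Luc myoblasts, day 1 cells and untransduced myotubes. Between myotubes and Luc myoblasts, the piericidin response differed for 8 of 9 members (46.5% of 12765 genes), that to antimycin for 9 of 9 (47.9%) and that to oligomycin for 3 of 9 (29%). The oligomycin count lay near the share of all genes and is no result about the members. The Fos and Egr2 calls under antimycin were lost without replicate 1. Under piericidin the response of Myc was lower in myotubes by log2 1.78 ± 0.11, that of Fosl1 by 2.32 ± 0.25 and that of Ier3 by 1.68 ± 0.12, and that of Egr1 was higher by 2.68 ± 0.20. Under oligomycin the Myc response did not pass the test of a difference between myotubes and Luc myoblasts (0.13 ± 0.10, adjusted p = 0.385), nor did that of Jun (0.03 ± 0.09) or Egr1 (-0.43 ± 0.18, adjusted p = 0.0828; 0.00917 with no count filter), while Fosl1 (-1.66 ± 0.23), Ier3 (-0.78 ± 0.11) and Junb (-0.39 ± 0.08) did, all lower in myotubes.
Day 1 cells already differed from Luc myoblasts under piericidin for 8 of 9 members (46.6% of genes), with -2.28 ± 0.11 for Myc and 2.07 ± 0.20 for Egr1. The Egr2 call was lost without replicate 1, 2 or 3 and the Junb call without replicate 2 or 3, so that 6 or 7 members were then called. Under oligomycin 2 of 9 differed, Jun higher (0.37 ± 0.09) and Egr1 lower (-0.60 ± 0.18). With 24.9% of all genes called there, this count is no result about the members. The Jun call was lost without replicate 1 or 3 and the Egr1 call with the compared groups alone. Myc, at -0.27 ± 0.10 (adjusted p = 0.0541), passed under 5 of 7 other settings. Between myotubes and day 1 cells, 2 of 9 members differed under piericidin (0.689% of genes), Myc (0.50 ± 0.12, adjusted p = 0.0355) and Ier3 (-0.54 ± 0.12, adjusted p = 0.0355), and no member was called without replicate 1, 2 or 3. With the compared groups alone both calls were lost, and Egr1 was called instead (log2 0.61, adjusted p = 0.0354). Under oligomycin 4 of 9 differed (3.57%), Myc higher in myotubes and Fosl1, Jun and Ier3 lower, and at most 1 was called without replicate 1, 2 or 3. The Jun call was lost under 6 of 7 other settings.

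**Figure D4:**
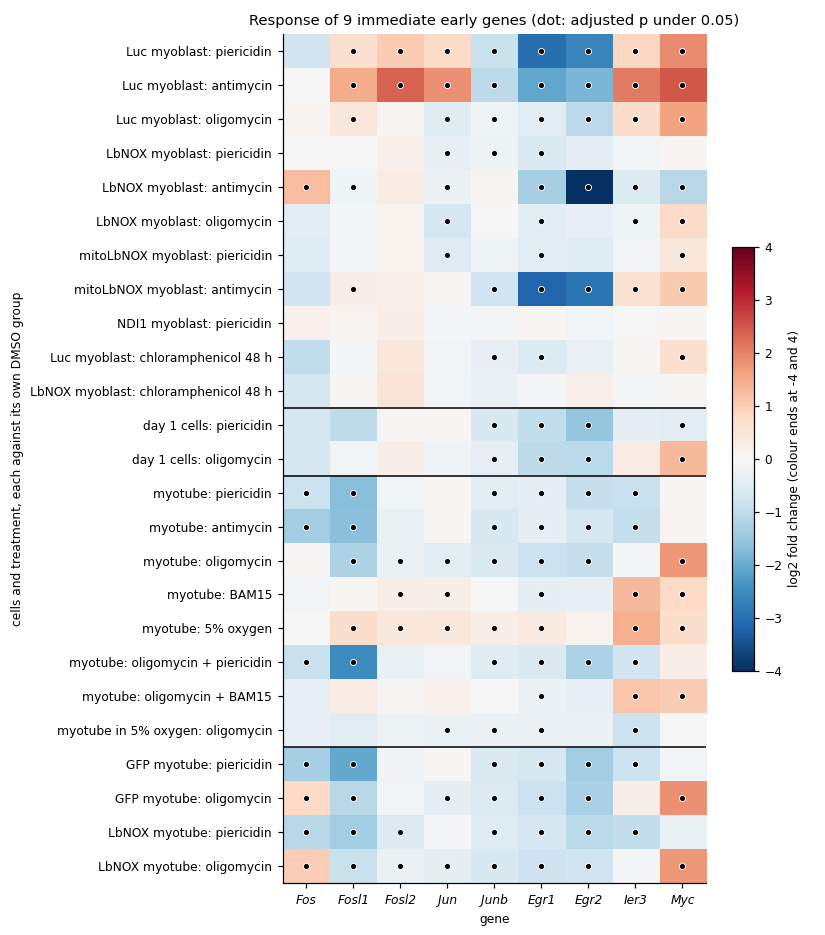
Heat map of log2 fold changes of 9 immediate early genes (columns) in 25 comparisons of a treatment with its own DMSO group (rows), red for higher and blue for lower, with a dot where the adjusted p was under 0.05. Myc is called higher with oligomycin alone in standard oxygen in each of the 6 kinds of cell tested, and Egr1 is called lower in the 3 Luc and the 3 LbNOX inhibitor rows of 10 h and in every oligomycin row.

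**Figure D5:**
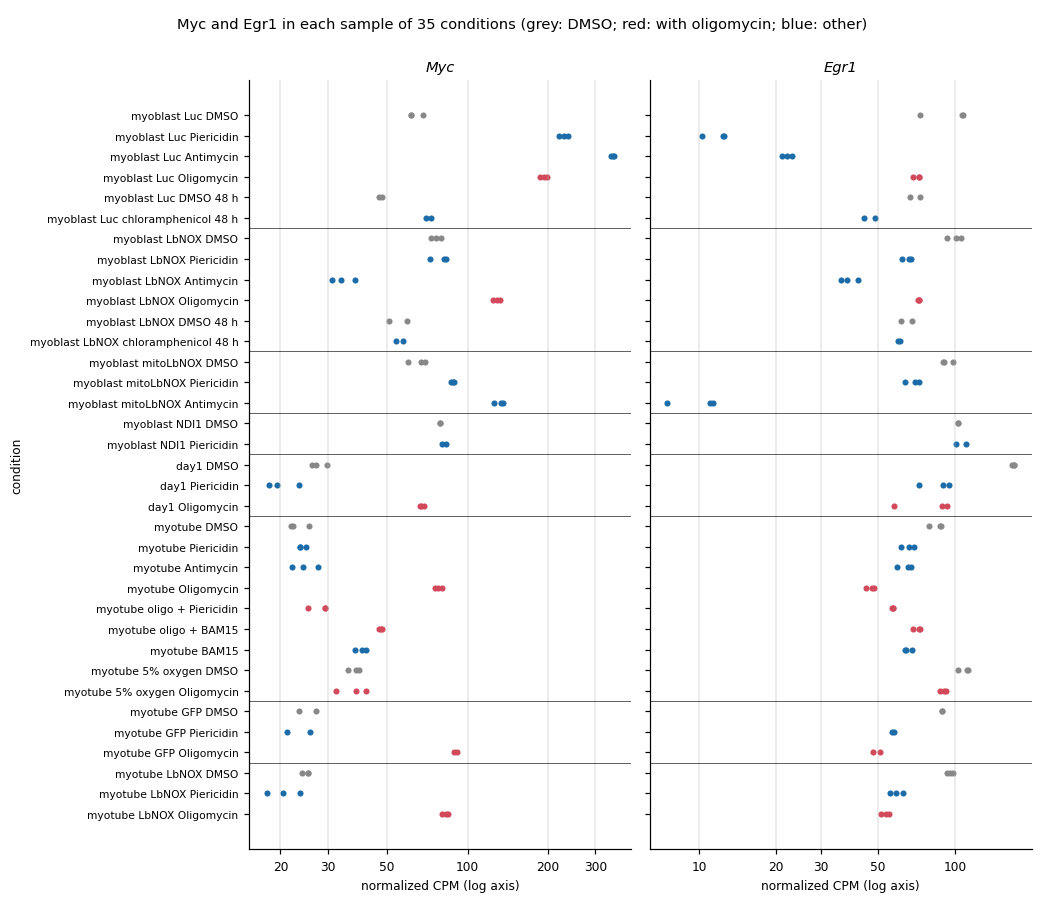
Normalized CPM of Myc (left) and Egr1 (right) on log axes in each sample of the 35 conditions, with DMSO in grey, oligomycin in red and other treatments in blue. Myc ranges from 17.8 CPM in LbNOX myotubes with piericidin to 352 CPM in Luc myoblasts with antimycin, and Egr1 from 7.51 CPM in mitoLbNOX myoblasts with antimycin to 171 CPM in day 1 cells with DMSO.

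Genes of the same pathways were counted from lists set by name. Of all genes tested in Luc cells, 30.9% rose and 30.8% fell with piericidin, 32.1% and 31.1% with antimycin and 24.5% and 26.3% with oligomycin, with medians of -0.004, -0.005 and -0.015, and the counts below stand beside these shares with no test. Of 38 other immediate early genes tested in myoblasts, such as Atf3, Btg2 and Nr4a1, 28 rose and 4 fell with piericidin in Luc cells, 32 rose and 3 fell with antimycin, and 17 rose and 8 fell with oligomycin, with medians of 0.90, 2.03 and 0.20. Atf3, a stress-induced partner of JUN, rose by log2 7.33 ± 0.21, 8.42 ± 0.21 and 5.94 ± 0.22 there. Arc, a serum-induced gene, fell by log2 2.58 ± 0.31, 1.45 ± 0.28 and 3.20 ± 0.33. In untransduced myotubes, 3 of 37 rose and 6 fell with piericidin, 9 rose and 17 fell with oligomycin, and 13 rose and 1 fell in 5% oxygen, where 4.15%, 16.9% and 12.3% of all genes rose and 4.84%, 16.4% and 9.78% fell. Atf3 rose by log2 5.62 ± 0.16 with oligomycin. In LbNOX myoblasts with antimycin, 14 of 38 rose and 9 fell (23.3% and 22.9% of all genes), and Btg2, an antiproliferative gene, rose by log2 1.52 ± 0.12.
Of 6 AP-1 partner genes tested in myoblasts, 5, 6 and 3 rose and none fell with piericidin, antimycin and oligomycin in Luc cells, led by Mafk, a small MAF protein (2.06 ± 0.08, 2.53 ± 0.08 and 1.26 ± 0.08). Of 11 MYC partner and network genes, 5, 5 and 3 rose and 3, 3 and 4 fell. Of 20 ribosome biogenesis and growth genes that MYC is known to drive, 18, 18 and 17 rose and 2, 2 and 2 fell with the 3 inhibitors in Luc cells. Among them Nop56, a nucleolar protein, rose by log2 1.88 ± 0.04 with piericidin, and Ldha and Tfrc were the 2 that fell in each. In untransduced myotubes, 15 of these 20 rose and 2 fell with oligomycin, and none rose and 2 fell with piericidin. With oligomycin, where Myc rose, 17 of the 20 rose and 1 fell in LbNOX myoblasts and 12 and 2 in day 1 cells. In GFP and LbNOX myotubes 15 and 16 rose with it and 2 fell. Of all genes, 17.5%, 10.6%, 14% and 17.2% rose there. In mitoLbNOX myoblasts, where Myc also rose, 11 rose and 0 fell with piericidin (6.37% of all genes rose) and 17 and 2 with antimycin (24.8%). Myc also rose in 5% oxygen, with 5 and 0 (12.3%), and with chloramphenicol in Luc cells, with 6 and 2 (4.83%). The counts did not follow the direction of Myc in every condition. With BAM15, where Myc rose (0.79 ± 0.09), 2 rose and 7 fell (13.2% and 12.2% of all genes), and with oligomycin and BAM15 together, where Myc also rose (1.02 ± 0.09), 2 rose and 4 fell (12.1% and 11%). In LbNOX myoblasts 8 rose and none fell with piericidin (5.01% and 3.87%), where Myc did not pass, and 5 rose and 7 fell with antimycin, where Myc fell.
Of 12 AP-1 target genes, 6, 7 and 7 rose and 3, 4 and 3 fell in Luc cells with the 3 inhibitors, and of 22 genes of the ERK and SRF pathway upstream of these promoters, 3, 7 and 0 rose and 8, 5 and 8 fell. The called share of the ERK and SRF genes, 11, 12 and 8 of 22, was below that of all genes (61.7%, 63.2% and 50.8%), and is no result about them. Of 10 interferon-induced genes tested, 4, 7 and 6 rose and 3, 2 and 3 fell, with the 12 genes of that list summing to 44.0 to 49.9 CPM with DMSO, 34.4 to 41.4 CPM with piericidin, 40.2 to 44.4 CPM with oligomycin and 100.2 to 118.2 CPM with antimycin.

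Across the 35 condition means of log2 CPM, each centred on its experiment, the genes most like each member were found among 10164 genes with a mean of at least 50 counts. These correlations share libraries and conditions and are descriptions. Myc was most like Zfp639 (Pearson r = 0.948), Atf4 (0.945) and Snhg1 (0.938), Jun most like Csrnp1 (0.913), Gem (0.899) and Dusp10 (0.894), and Fosl2 most like Tnfaip3 (0.861), Csrnp1 (0.860) and Dusp10 (0.857). Among the genes most like Junb were S100a11 (0.888) and Fbxl15 (0.884), Egr1 was most like Emp1 (0.913), Stard13 (0.909) and Gramd4 (0.908), and Egr2 most like Ssbp3, Gcnt4 and Zmynd8 (0.859, 0.859 and 0.858). Ier3 was most like Slc2a1 (0.921), which encodes a glucose transporter, and Fosl1 most like Ier3 (0.868), the highest value between members. Fosl2 with Jun (0.804), Egr1 with Egr2 (0.797) and Junb with Egr1 (0.784) followed, and Junb with Myc had -0.533. The low genes had weaker leaders, Nfkbiz for Fos (0.727) and Hbegf for Fosb (0.689).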

How the data were processed

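Polyadenylated RNA of 96 samples was sequenced from Smart-seq2 libraries that do not keep strand, so reads of a gene and of an antisense partner cannot be told apart. The authors mapped reads to mouse transcripts (GRCm38.p6 with the transgenes) with kallisto 0.44 with bias correction and summed transcripts to genes with tximport, and the deposited values are estimated counts per gene in whole numbers. Total counts per sample ran from 6458295 to 15366745, which sets the precision of low genes such as Fos, Fosb and Egr2. A gene was tested where all replicates of any 1 condition reached 16 counts, in 6 separate fits (myoblasts, chloramphenicol, untransduced myotubes, transduced myotubes, day 1 cells and cell states) with TMM factors and edgeR 4.0.16's quasi-likelihood test in R 4.3.3, and p-values were adjusted by the Benjamini-Hochberg method separately for each comparison and called under 0.05. The SE of a log2 fold change is its size divided by the root of the F value. The steps were tested on simulated data. The authors' own test, DESeq2 (1.42.0 here), was an alternative, beside DESeq2 size factors, TMM over all 96 samples, no count filter, a replicate block, outer plate position as a covariate, the compared groups alone, and each library left out in turn (by replicate number in the cell state fit). All 10 members were named throughout, and from the other lists up to 3 called genes per direction, ranked by size of change and averaging 50 counts or more. A few genes that this rule names are not reported here. The members and lists were chosen with earlier results of these data known. Samples were not paired by replicate number in the main fits. Residuals of same-numbered samples had a mean correlation of -0.0481 to 0.0583 by fit. In the myoblast fit the mean was 0.0486 against -0.0244 for other pairs, and 89 of 211 same-numbered pairs were over 0.1. In the day 1 fit it was 0.0583 against -0.0291, with 3 of 9 over 0.1, so a weak pairing is not excluded.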

Additional observations from a re-analysis of the deposited data

Results flagged for a closer look

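The results below were singled out because the response to a treatment differed between lines or cell states by an interaction test in edgeR. No group held more than 3 samples, so no search for outlying samples was made.

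Against Luc myoblasts, 8 of 9 members responded differently to piericidin in LbNOX cells (44.3% of all genes), 9 to antimycin (51.5%) and 3 to oligomycin (7.98%), 8 to piericidin (42.9%) and 7 to antimycin (31.7%) in mitoLbNOX cells, and 8 to piericidin in NDI1 cells (42.7%). Some members were called in opposite directions in the lines. For piericidin, Jun differed by log2 -1.07 in LbNOX and -1.26 in mitoLbNOX cells. For antimycin in LbNOX cells, Fosl1 differed by -1.66, Jun by -2.06, Ier3 by -2.64 and Myc by -3.61, and for oligomycin Ier3 differed by -0.86. Of the calls within LbNOX cells behind these, that of Ier3 with oligomycin was lost under 4 of 7 other settings and in 5 of 6 fits that left out a library, and that of Fosl1 with antimycin in 3 such fits.

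Between myotubes and Luc myoblasts, 8 of 9 members differed in response to piericidin (46.5% of all genes), 9 to antimycin (47.9%) and 3 to oligomycin (29%). Fosl1 and Ier3 were called in opposite directions, with log2 differences of -2.32 and -1.68 for piericidin and -3.10 and -2.98 for antimycin, and Fosl1 with -1.66 for oligomycin. Between day 1 cells and Luc myoblasts, 8 members differed for piericidin (46.6%), with Myc called in opposite directions (-2.28), and 2 for oligomycin (24.9%). The oligomycin counts of 3 and 2 of 9 lay near the 29% and 24.9% of all genes, and are no result about the members. The Myc call within day 1 cells was lost in 5 of 6 fits that left out a library and with the compared groups alone. Between myotubes and day 1 cells, 2 differed for piericidin (0.689%) and 4 for oligomycin (3.57%), and with any replicate number left out these counts were 0 and at most 1. In the comparisons with Luc myoblasts, cell state cannot be told apart from serum, transduction and doxycycline.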

How the results depend on the processing

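Of 310 member results that passed the threshold, 249 passed under every alternative that gave a value and 61 lost the call under at least 1, and of 257 that did not pass, 228 stayed so and 29 passed under at least 1. None of these called results changed direction. An alternative with no adjusted p for a member was skipped. DESeq2's Wald test gave 519 unchanged, 7 gained and 8 lost calls, fewer than all results, and a member without its adjusted p counted as not called by it. Counts of members called moved by over 1.5 times as follows, and where no value of another kind is given the cause was not tested. The chloramphenicol difference between lines went from 0 to 1 with no count filter and by DESeq2's Wald test, which also took the mitoLbNOX baseline and antimycin against piericidin in myotubes from 0 to 1, and BAM15 in myotubes from 5 to 3 with no count filter. Piericidin in GFP myotubes went from 6 to 0, and the difference in piericidin response between myotubes and day 1 cells from 2 (Myc and Ier3) to 1, another member (Egr1), the NDI1 baseline from 3 to 0, the LbNOX baseline from 2 to 1 and the 48 h LbNOX baseline from 1 to 0, with the compared groups alone, which leaves fewer samples to estimate the spread. The difference in oligomycin response between day 1 cells and Luc myoblasts went from 2 to 4 with DESeq2 size factors, with TMM over all 96 samples and with the replicate block, and to 5 by DESeq2's Wald test. The 48 h LbNOX baseline also went to 0 with the replicate block. The oligomycin difference between myotubes and day 1 cells went from 4 to 1 with no count filter, with plate position as a covariate and with the compared groups alone.

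With libraries left out in turn, the count ran from 1 to 3 for chloramphenicol in Luc cells, 3 to 4 for BAM15, 2 to 4 for oligomycin in 5% oxygen, 3 to 5 for piericidin in GFP myotubes, 1 to 2 for the LbNOX baseline, 0 for the 48 h LbNOX baseline and 0 to 1 for antimycin against piericidin in myotubes. With a replicate number left out, it was 0 for the piericidin difference between myotubes and day 1 cells, 1 to 3 for the oligomycin difference between day 1 cells and Luc myoblasts and 0 to 1 for that between myotubes and day 1 cells. Depth limits Fosb, with at most 11 counts in a sample, and Egr2 in LbNOX myoblasts with antimycin, with 4 counts over 3 samples.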
